A study of Mus musculus with 6 samples.

Results

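The MHC class I presentation genes described here are 10 genes out of the 18341 in the deposited expression table, chosen by name for their place in the pathway. They comprise the heavy chains H2-K1, H2-D1 and H2-T23, the light chain B2m, the peptide transporter and loading genes Tap1, Tap2 and Tapbp, the immunoproteasome subunits Psmb8 and Psmb9, and the class I regulator Nlrc5. The 6 libraries were RNA-seq of monocytes sorted from tumours that grew under the skin of C57BL/6 mice, 13 days after inoculation. In 3 libraries, called BAFF tumours 1 to 3, the injected cells overexpressed BAFF, a TNF-family cytokine best known as a survival factor of B cells. In the other 3, called control tumours 1 to 3, control cells were injected. The sample source label names B16.F10, a C57BL/6 melanoma line, where the study design names sorted monocytes. The labels do not say how BAFF overexpression was made, what the control cells carried, which markers defined the sort, or whether each library came from a separate mouse, so p-values measure only the spread between these samples.

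An MHC class I molecule is a polymorphic heavy chain held at the cell surface by beta-2-microglobulin and a short peptide. The proteasome cuts cytosolic proteins, and in immune or interferon-exposed cells its catalytic subunits are exchanged for the immunoproteasome forms. The peptides enter the endoplasmic reticulum through the TAP transporter, and tapasin bridges TAP to the empty class I molecule until a peptide is bound. NLRC5 is a transactivator that acts on class I promoters together with RFX, CREB/ATF and NF-Y proteins, and interferon gamma raises the whole set. Monocytes and the macrophages derived from them express the pathway constitutively. B16.F10 cells come from the same mouse strain as the host, so class I transcripts of tumour cells and host cells cannot be told apart by sequence. In sorted bulk RNA, fewer cells of a type and less RNA per cell cannot be told apart either.

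The promoters of this family carry short shared elements, and 4 windows before the start sites of 5 genes are printed because the heavy and light chains and the Tap1 and Psmb9 pair are compared below. The sequences are from RefSeq on GRCm38.p6, 5′ to 3′ in the direction of transcription, and 8 of the 10 genes matched an entry, all but Tap2 and Nlrc5. Capitals mark matches, on either strand, to an interferon response element written GAAANNGAA or, in its other spacing, GAANTGAAA, to the CCAAT box, and to a kB-like site written GGGNNTTCC. The B2m window is chr2:122147487-122147686 on the plus strand, that of H2-K1 is chr17:34000348-34000547 on the minus strand, and that of H2-D1 is chr17:35262894-35263093 on the plus strand. The last window, chr17:34187331-34187555, is the whole interval of 225 bases between the start sites of Psmb9 and Tap1, which are transcribed away from each other, written in the Tap1 direction.
B2m: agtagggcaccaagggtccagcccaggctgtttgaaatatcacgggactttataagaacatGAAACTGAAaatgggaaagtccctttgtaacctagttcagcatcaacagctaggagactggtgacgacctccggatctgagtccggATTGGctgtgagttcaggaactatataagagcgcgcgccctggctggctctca
H2-K1: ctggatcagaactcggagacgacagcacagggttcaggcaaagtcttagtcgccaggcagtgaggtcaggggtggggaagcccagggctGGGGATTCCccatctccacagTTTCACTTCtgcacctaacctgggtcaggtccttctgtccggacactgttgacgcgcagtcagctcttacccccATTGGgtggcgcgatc
H2-D1: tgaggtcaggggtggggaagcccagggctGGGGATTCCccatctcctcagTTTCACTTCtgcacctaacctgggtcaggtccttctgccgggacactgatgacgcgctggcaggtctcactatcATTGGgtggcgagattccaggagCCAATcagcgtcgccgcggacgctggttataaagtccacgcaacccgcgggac
Tap1-Psmb9: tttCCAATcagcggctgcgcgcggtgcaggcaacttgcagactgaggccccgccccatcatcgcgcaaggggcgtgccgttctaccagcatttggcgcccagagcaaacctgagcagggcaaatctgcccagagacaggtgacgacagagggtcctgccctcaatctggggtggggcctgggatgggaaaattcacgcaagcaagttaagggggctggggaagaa

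The H2-K1 and H2-D1 windows held the kB-like match, the GAANTGAAA match and a CCAAT box in the same order. They shared an identical run of 46 bases. The kB-like match began at -111 in H2-K1 and -171 in H2-D1, and the interferon element at -90 and -150. The CCAAT box that followed began at -16 and -76. Positions count from the start farthest upstream among a gene's entries, so their difference between these genes depends on the start taken. B2m had the GAAANNGAA spacing at -139 and a CCAAT box at -53, and its longest identical run with either heavy chain was 8 bases. No other spacing of the kB-like pattern was searched, so an unmarked window, as in B2m, may still hold a kB site. Of the 32851 promoters in the table, searched over the 250 bases before the start on both strands, 7.13% held GAAANNGAA, 1.5% GAANTGAAA, 4.98% GGGNNTTCC and 33.8% CCAAT. The match to GAAANNGAA also occurred in H2-T23, and CCAAT was found in 7 of the 8 matched genes, Psmb8 being the exception. Psmb8 held TTCNNNGAA, the gamma-activated site, which 7.02% of all promoters held. These are matches of letters and not measured binding sites.

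Values are CPM (read counts relative to the total of the library) from the table the authors deposited, divided by a median-of-ratios size factor per library, called scaled CPM, because the listed genes held between 39.8% and 66.1% of each library's CPM total. The size factors ranged from 1.07 to 1.14 in the BAFF libraries and from 0.670 to 1.27 in the controls. The listed genes of a library drew on 1878752 reads (control tumour 3) to 18238821 reads (BAFF tumour 2). Control tumours 2 and 3 stood apart in ribosomal RNA, with the rRNA-derived transcript CT010467.1 at 27016.5 and 43052 CPM in the deposited table, against 299 to 5880 CPM in the other 4 libraries. All 10 monocyte and macrophage markers were detected in each library, and Lyz2, the lysozyme of myeloid cells, was the most abundant. Their summed level was 9363 to 10114 scaled CPM in the BAFF libraries and 6624 to 8411 in the controls. Among single genes, 17.3% of all tested were higher without overlap. Of the 10 markers 3 were called higher (adjusted p under 0.05), beside 7.18% of all genes tested, and 2 had log2 fold changes below 0. With deposited CPM, not scaled, 0 of the 10 were called. Melanoma markers summed to 82.4 to 170 scaled CPM in the BAFF libraries and 509 to 656 in the controls. None of the 12 was at 0 in any library. Among single genes, 17.8% of all tested were lower without overlap and 9.91% were called lower. Of the 11 melanoma markers tested 10 were called lower, led in abundance by the pigment enzyme gene Dct. Their part in the class I values was not tested.

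No class I presentation gene passed the test in either direction. Of 12824 genes tested with limma on log2(scaled CPM + 1), 2192 had a Benjamini-Hochberg adjusted p under 0.05, which is 17.1% of them, against 0 of the 10 class I genes. By direction 7.18% of all genes were higher and 9.91% lower, and 3919 genes had an unadjusted p under 0.05, none of them among the 10. The median log2 fold change of the 10, BAFF minus control, was 0.08, beside 0.01 over all genes tested, with 7 values above 0 and 3 below. All 10 lay within 0.25 of 0 on the log2 scale, as did 57.3% of all genes. The class I genes were among the well measured ones, with at least 124 reads behind any value (Psmb9 in control tumour 3) and up to 50654 (B2m in BAFF tumour 2).

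**Figure D1:**
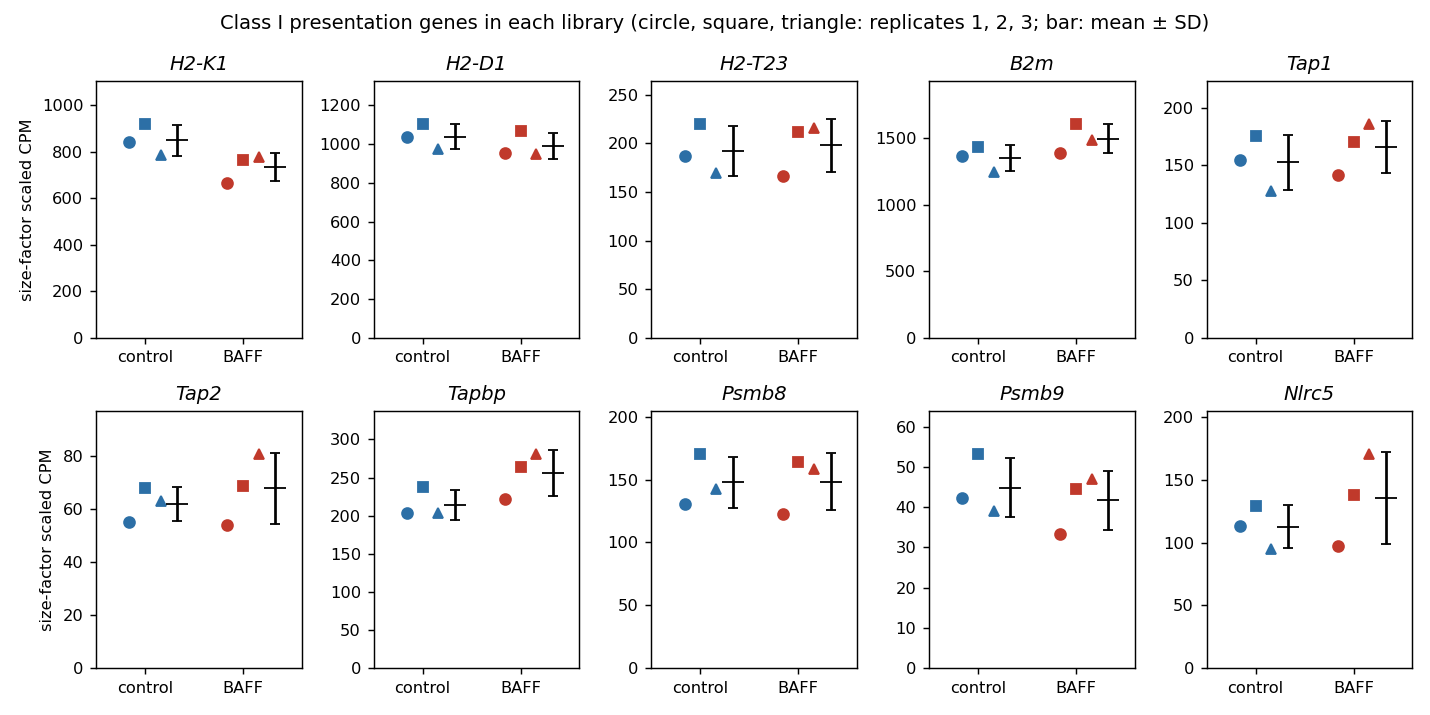
Scaled CPM of the 10 class I presentation genes in each library, control tumours in blue and BAFF tumours in red, with circle, square and triangle for replicates 1, 2 and 3 and bars for the mean ± SD (n = 3). The groups overlapped in every gene but H2-K1, where the BAFF libraries reached 775 and the controls began at 785.

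H2-K1 and H2-D1 are the classical heavy chains of the H-2b haplotype, which present peptides to CD8 T cells. H2-K1 measured 665, 764 and 775 scaled CPM in the BAFF libraries and 842, 919.9 and 785 in the control libraries. It was the only one of the 10 whose groups did not overlap, with every BAFF library below every control library, as in 17.8% of all genes tested. The mean was 735 ± 60.8 against 849 ± 67.9 scaled CPM (SD, n = 3), a log2 fold change of -0.21 ± 0.12 (SE) with a 95% interval of -0.46 to 0.05 and a limma adjusted p of 0.257. The gap between the groups was narrow, since the highest BAFF library and the lowest control library differed by less than the SD of either group.

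H2-D1 measured 953, 1067 and 950.0 scaled CPM in the BAFF libraries and 1036, 1105 and 975 in the controls. Its groups overlapped and its log2 fold change was -0.07, with an interval of -0.32 to 0.18 and a limma adjusted p of 0.734. H2-D1 was also the steadiest of the 10 between libraries of 1 group, with a within-group SD of 0.09 log2 units, beside a median of 0.18 over all genes. In the GENCODE transcripts 4.64% of its windows of 100 bases occur in transcripts of other genes, nearly all of them class I relatives, so its values depend on how the authors' counting treated shared reads. In control tumour 3 its value was no whole number of reads, and neither was that of H2-T23, whereas the other 8 of the 10 were whole to within 0.02 reads.

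H2-T23 encodes Qa-1, a nonclassical heavy chain that presents leader peptides of other class I molecules to the NKG2A receptor. It measured 167, 212 and 216 scaled CPM in the BAFF libraries and 187, 220.1 and 169.8 in the controls. The ranges almost coincided, and the log2 fold change was 0.04 with an interval of -0.24 to 0.32 and a limma adjusted p of 0.862. Of its windows of 100 bases 3.93% are shared with transcripts of other genes.

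B2m, the invariant light chain of all these heavy chains, measured 1390.3, 1609 and 1489 scaled CPM in the BAFF libraries and 1369, 1435 and 1246 in the controls. BAFF tumours 2 and 3 lay above every control library, while BAFF tumour 1 lay below control tumour 2. The log2 fold change was 0.15 ± 0.12 (SE), with an interval of -0.12 to 0.42 and a limma adjusted p of 0.467.

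Per kilobase of exon, B2m stood far above its partners. Its level was 1740 ± 127 scaled CPM per kb in the BAFF libraries and 1570 ± 112 in the controls (SD, n = 3), followed by H2-D1 at 384 and 403 and H2-K1 at 250.1 and 289. Next came H2-T23 at 68.6 and 66.5 and Tapbp at 70.4 and 59.1 scaled CPM per kb, then Psmb8 at 43.9 and 43.7 and Tap1 at 30.3 and 27.8. Tap2 at 17.9 and 16.4, Nlrc5 at 15.9 and 13.3 and Psmb9 at 11.4 and 12.3 were lowest. In this order each gene was above the next in 6 of 6 libraries, except that H2-T23 exceeded Tapbp in 4 of 6. The lengths are the union of GENCODE exons, and the isoforms the monocytes used were not measured.

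Tap1 and Tap2 encode the subunits that pair to form the peptide transporter. Tap1 measured 142, 170.3 and 186 scaled CPM in the BAFF libraries and 154, 175 and 128 in the controls, a log2 fold change of 0.12 with an interval of -0.17 to 0.42 and a limma adjusted p of 0.580. Tap2 measured 53.9, 68.6 and 80.6 scaled CPM in the BAFF libraries and 55.1, 67.9 and 62.9 in the controls, a log2 fold change of 0.11 with an interval of -0.20 to 0.42 and a limma adjusted p of 0.641. For both genes the highest library was BAFF tumour 3, and BAFF tumour 1 lay within or below the control range.

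Tapbp encodes tapasin, which holds empty class I molecules next to TAP. It measured 222, 264 and 281 scaled CPM in the BAFF libraries and 203, 237 and 203 in the controls. BAFF tumours 2 and 3 exceeded all controls and BAFF tumour 1 fell between them. The mean was 256 ± 30.4 against 214 ± 19.9 scaled CPM (SD, n = 3), and its log2 fold change of 0.25 ± 0.12 (SE), interval -0.0013 to 0.50, was the largest of the 10, with the smallest limma adjusted p on this scale, 0.166.

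Psmb8 and Psmb9 encode the catalytic subunits LMP7 and LMP2 of the immunoproteasome. Psmb8 measured 123, 164 and 158 scaled CPM in the BAFF libraries and 131, 170.5 and 142 in the controls, so that the group means of 149 and 148 nearly coincided. Its log2 fold change was 0.0030 with an interval of -0.29 to 0.29 and a limma adjusted p of 0.992. Psmb9 measured 33.5, 44.6 and 47.2 scaled CPM in the BAFF libraries and 42.3, 53.3 and 39.2 in the controls, a log2 fold change of -0.11 with an interval of -0.43 to 0.22 and a limma adjusted p of 0.680. Both genes overlapped between the groups, and BAFF tumour 1 was the lowest of the 6 libraries in each.

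Nlrc5 varied most between libraries of 1 group, with a within-group SD of 0.33 log2 units. It measured 97.4, 138 and 171 scaled CPM in the BAFF libraries and 114, 129.5 and 95.1 in the controls. BAFF tumour 3 was the highest library and BAFF tumour 1 was beside the lowest. The log2 fold change was 0.24 ± 0.18 (SE) with an interval of -0.15 to 0.62 and a limma adjusted p of 0.412, so neither no change nor a rise of 1.54-fold lay outside the interval.

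On the deposited CPM scale, without size factors, the 10 log2 fold changes were all above 0, from 0.05 for H2-K1 to 0.50 for Tapbp, so H2-K1, H2-D1 and Psmb9 change sign between the scales. The median of the 10 was 0.33 there, and the median of all genes was 0.23 in place of 0.01. On that scale 681 genes, 5.31% of those tested, passed the test (1.81% higher, 3.5% lower), and again 0 of the 10 did, with 2053 genes at an unadjusted p under 0.05 and a smallest limma adjusted p of 0.453 among the 10 (Tapbp). With control tumour 1 left out on the deposited scale, 4 of the 10 passed as higher. Their log2 fold changes were 0.65 for B2m, 0.62 for Tap1, 0.70 for Tapbp and 0.73 for Nlrc5, with limma adjusted p of 0.0415, 0.0232, 0.0128 and 0.0075. In that fit 5149 genes passed, 4615 of them higher, and both remaining controls were the libraries high in rRNA. With both of those left out instead, on the scaled values, control tumour 1 was the only control, so the spread came from the BAFF libraries and the lone control was assumed to vary like them. In that fit the log2 fold changes ran from -0.21 for H2-K1 to 0.31 for Tapbp, and 0 of the 10 passed, which with 1 control is no sign of stability.

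**Figure D2:**
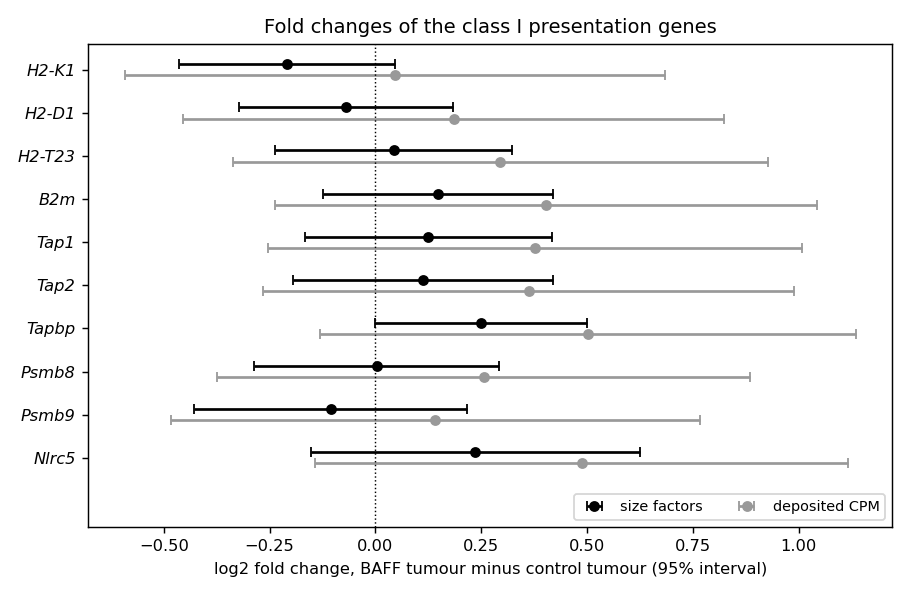
Log2 fold change, BAFF tumour minus control tumour, of each class I presentation gene with its 95% interval from limma, on scaled CPM (black) and on deposited CPM (grey). Every interval includes 0 on both scales, and the deposited values lie to the right of the scaled ones, as did the median of all genes (0.23 against 0.01).

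The library order was nearly the same from gene to gene. How many genes outside the 10 shared this order was not counted. Among the controls, control tumour 2 was the highest in all 10 genes and control tumour 3 the lowest in 8, the exceptions being Tap2 and Psmb8, which were lowest in control tumour 1. Among the BAFF libraries, BAFF tumour 1 was the lowest in 9 of the 10, H2-D1 being the exception, and BAFF tumour 3 the highest in 7. The mean deviation of the 10 genes from their own means, on the log2 scale, was -0.20, 0.11 and 0.17 in BAFF tumours 1 to 3 and -0.07, 0.14 and -0.15 in control tumours 1 to 3. The spread within a group thus exceeded the median fold change of 0.08 between the groups.

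**Figure D3:**
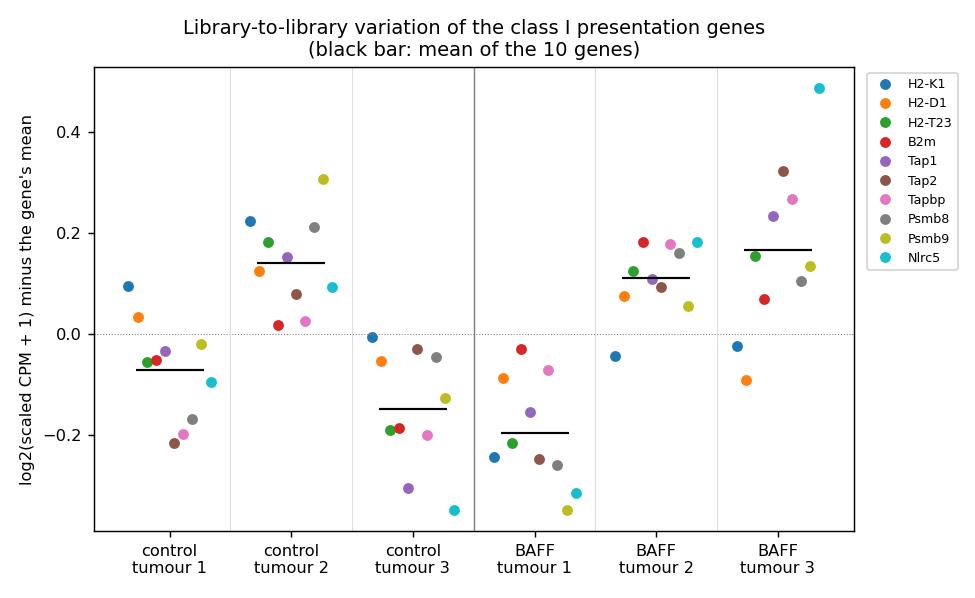
Deviation of each class I presentation gene from its own mean over the 6 libraries, in log2(scaled CPM + 1), 1 column per library, with a black bar for the mean of the 10 genes. The mean is lowest in BAFF tumour 1 (-0.20) and highest in BAFF tumour 3 (0.17), and H2-K1 and H2-D1 lie below the bar in BAFF tumours 2 and 3 and above it in control tumours 1 and 3.

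H2-T23 followed this shared profile most closely, with a root mean square distance of 0.027 log2 units over the 6 libraries. Nlrc5 at 0.17, H2-K1 at 0.14 and H2-D1 at 0.13 log2 units lay farthest from it. Among 9003 other genes that averaged at least 5 CPM, the profiles most like it were those of Bzw2 (0.035 log2 units), Apex1 (0.050), Grcc10 (0.050), Scfd1 (0.051) and Twf2 (0.052). All 5 lay closer to the profile than any class I gene except H2-T23, the next being Tap1 at 0.073 log2 units. The profile was thus also seen outside the class I genes. These 5 were the closest of 9003, and the share of genes this close was not counted. These 5 had log2 fold changes of 0.04 to 0.15 and none passed the test between the groups. That follows from their choice, since the profile they were matched to differed little between the groups.

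Ratios within a library do not depend on its scaling. Relative to B2m, H2-K1 and H2-D1 were lower in every BAFF library than in every control, as were 25.4% of all genes tested, while H2-T23 overlapped. H2-K1 amounted to 0.478, 0.475 and 0.521 of B2m in the BAFF libraries and 0.615, 0.641 and 0.630 in the controls, as ratios of CPM + 1. All 3 BAFF libraries were below all 3 controls, with a log2 difference of -0.36 beside SDs of 0.07 and 0.03 within the groups. H2-D1 to B2m was 0.686, 0.663 and 0.638 in the BAFF libraries and 0.757, 0.770 and 0.783 in the controls, again without overlap, and the log2 difference was -0.22. The exact two-sided permutation p was 0.1 for each, the smallest that 3 against 3 libraries allows, and 0.133 after Benjamini-Hochberg adjustment over 4 ratios. These differences could thus not pass a threshold of 0.05 in this design.

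The other 7 members overlapped between the groups relative to B2m. In all, 2 of the 9 were lower without overlap, a share no larger than the 25.4% of all genes, and 0 were higher, against 6.06% of all genes. The 7 that overlapped ranged in log2 difference from -0.25 for Psmb9 to 0.10 for Tapbp. Since B2m is the denominator in each, its own level enters every one of these ratios.

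Tap1 and Psmb9 start from the same interval printed above, in opposite directions. Their log2 ratio was 2.05, 1.91 and 1.96 in the BAFF libraries and 1.85, 1.70 and 1.67 in the controls. The groups did not overlap, with a log2 difference of 0.24, an exact permutation p of 0.1 and an adjusted p of 0.133. How many other genes separate relative to Psmb9 was not counted. Relative to B2m, 25.4% of all genes were lower and 6.06% higher without overlap. In GENCODE the exons of the pair overlap by 212 bases on opposite strands, and the library kit does not mark strand, so reads there cannot be assigned to 1 of the genes. The Tap1 to Tap2 log2 ratio overlapped between the groups, with a difference of 0.02 (exact permutation p of 0.9).

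The immunoproteasome subunits replace constitutive counterparts, Psmb8 for Psmb5, Psmb9 for Psmb6 and Psmb10 for Psmb7. Psmb8 stood at 5.40, 7.83 and 7.43 times Psmb5 in the BAFF libraries and 6.53, 7.73 and 7.20 times in the controls. Psmb9 stood at 0.400, 0.464 and 0.697 of Psmb6 in the BAFF libraries and 0.611, 0.586 and 0.506 in the controls. The Psmb10 to Psmb7 ratio was 1.03, 1.10 and 1.32 in the BAFF libraries and 1.08, 1.38 and 1.18 in the controls. All 3 ratios overlapped between the groups, with log2 differences of -0.05, -0.16 and -0.07, exact permutation p of 0.9, 0.6 and 0.6, and 0.9 for each after adjustment over the 3. BAFF tumour 1 had the lowest of the 6 values in each ratio. These are ratios of CPM and not per length, so they show change between libraries and not the share of each subunit form.

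**Figure D4:**
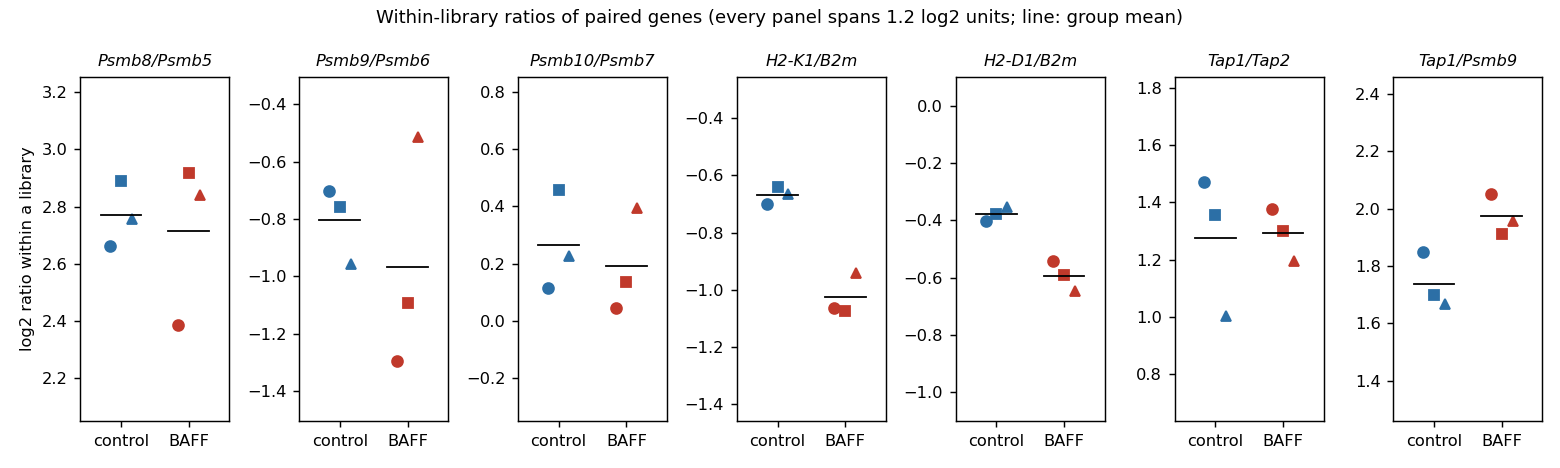
Log2 ratio of CPM + 1 within each library for 7 gene pairs, control tumours in blue and BAFF tumours in red, with symbols for replicates 1 to 3 and a line for the group mean, each panel spanning 1.2 log2 units. The groups separate for H2-K1/B2m, H2-D1/B2m and Tap1/Psmb9 and overlap for the other 4 pairs.

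The rest of the pathway was read from 8 further lists, whose counts stand beside 7.18% higher and 9.91% lower over all genes tested. Of the 29 other class Ib and class I-like heavy chains, 16 were found and 14 tested; 0 were higher and 1 was lower, and 12 of the 14 log2 fold changes were below 0, with a median of -0.08. On the deposited scale 5 of the 14 were below 0. The 1 gene that passed was Fcgrt, the neonatal Fc receptor that binds IgG and albumin and pairs with B2m but presents no peptide. Fcgrt measured 20.7, 18.2 and 28.0 scaled CPM in the BAFF libraries and 76.6, 64.0 and 55.0 in the controls and the groups lay far apart. It fell by 1.52 ± 0.16 (SE) on the log2 scale, to 0.350 of control (95% interval 0.274 to 0.446), with a limma adjusted p of 0.0001. On the deposited scale it fell by 1.27 with a limma adjusted p of 0.0032, and there the call was lost without BAFF tumour 1 (adjusted p = 0.118), BAFF tumour 2 (0.153) or control tumour 2 (0.0726). Melanoma markers moved the same way as Fcgrt, and their part in it was not tested.

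Relative to B2m, 5 of the 14 were lower in every BAFF library than in every control and 0 were higher, against 25.4% and 6.06% of all genes. The log2 differences of these ratios were -1.66 for Fcgrt, -0.64 for H2-Q6, -0.57 for H2-Q7, -0.45 for H2-T22 and -0.19 for H2-M3, names given here after their values were seen. H2-Q6 and H2-Q7 are Qa-2 family genes and near-identical copies of each other, and only 7 of the 16 in the table had whole reads in control tumour 3, so values within this family are uncertain.

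Peptide loading and trimming partners showed 0 of 9 higher and 0 lower, with a median log2 fold change of 0.13. The most abundant was Calr, the chaperone calreticulin, at 661, 821 and 730.3 scaled CPM in the BAFF libraries and 613, 718 and 706 in the controls, with a log2 fold change of 0.12 and a limma adjusted p of 0.566. The 4 other immunoproteasome and PA28 genes showed 0 calls and a median of 0.25, led in abundance by Psme1, a subunit of the PA28 activator. Of the 14 constitutive 20S core genes, 14 had a log2 fold change above 0, with a median of 0.19 beside 0.01 over all genes. The share of all genes above 0 was not counted. Of the 14, 1 passed, Psma7, at 0.32 with a limma adjusted p of 0.0491. That call was lost on the deposited scale, under TMM or upper-quartile factors, with the 5 CPM filter, a pseudocount of 0.1 or no variance trend, and in 5 of the 6 fits that left out 1 library, being kept only without BAFF tumour 3.

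Among 16 transcription regulators of class I genes, 1 was higher and 0 lower, with a median log2 fold change of 0.06. Of all genes tested, 7.18% were higher and 9.91% lower. Nfkb1, the p105 and p50 subunit of NF-kB, measured 140, 171 and 184 scaled CPM in the BAFF libraries and 111, 118 and 100.5 in the controls. All BAFF libraries lay above all controls, as in 17.3% of all genes tested. Nfkb1 rose by 0.57 ± 0.12 (SE) on the log2 scale with a limma adjusted p of 0.0059. The deposited scale gave a log2 fold change of 0.82 and a limma adjusted p of 0.125. Against control tumour 1 alone, without the control libraries high in rRNA, the log2 fold change was 0.54 (limma adjusted p of 0.0893, with the spread from the BAFF libraries only). Irf1, an interferon-induced factor named here after its values were seen, had a log2 fold change of -0.17 with a limma adjusted p of 0.686.

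Of 17 tested genes of the interferon gamma receptor and response list, 4 were higher and 0 lower, beside 7.18% and 9.91% of all genes. In the list 8 log2 fold changes were below 0 and the median was 0.05. Jak2, a kinase of the interferon gamma receptor, measured 125, 122 and 139 scaled CPM in the BAFF libraries and 73.4, 89.3 and 69.2 in the controls, a log2 fold change of 0.74 with a limma adjusted p of 0.0011. Jak1, its other kinase, named here after its values were seen, was not called (log2 fold change 0.19, limma adjusted p of 0.247). On the deposited scale Jak2 had 0.99 with a limma adjusted p of 0.0425, and that call was lost when any 1 library except control tumour 1 was left out (adjusted p 0.0669 to 0.352). Gbp2, an interferon-induced GTPase, measured 332, 547 and 602 scaled CPM in the BAFF libraries and 287, 328 and 285 in the controls, a log2 fold change of 0.67 with a limma adjusted p of 0.0265. The other interferon-induced GTPases of the list, named here after their values were seen, were not called. Gbp3 was at 0.05, and Gbp4 (-0.23), Gbp5 (-0.07), Gbp7 (-0.20), Irgm1 (-0.20) and Igtp (-0.23) were below 0. Iigp1 was lowest at -0.96 with a limma adjusted p of 0.0991. Ifngr1, the ligand-binding receptor chain, and Cd274, which encodes PD-L1, rose by 0.40 and 0.47 with limma adjusted p of 0.0445 and 0.0464. None of Gbp2, Ifngr1 and Cd274 was called on the deposited scale or without a variance trend (limma adjusted p of 0.0762, 0.115 and 0.116). Ifngr1 and Cd274 also lost the call with upper-quartile factors (0.0717 and 0.0787) and with the 5 CPM filter (0.0816 and 0.0799). Leaving out 1 library ended the call of Gbp2 for BAFF tumours 2 and 3 and control tumours 1 and 3 (limma adjusted p up to 0.115). It ended that of Ifngr1 for each library but control tumour 1 (up to 0.170) and that of Cd274 for BAFF tumours 1 and 2 and control tumours 1 and 3 (up to 0.169).

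MHC class II genes gave 1 higher and 0 lower of 10 tested, H2-DMb1, part of the peptide exchange factor H2-M, with a log2 fold change of 0.43 and a limma adjusted p of 0.0374. That call was lost on the deposited scale, with upper-quartile factors (0.0613), with the 5 CPM filter (0.0658), with no variance trend (0.102) and without BAFF tumour 2 or 3 or control tumour 1 or 2 (adjusted p up to 0.135). Among 7 tested receptors that bind class I or belong to the same receptor families, 2 were higher and 0 lower. Over all genes tested 7.18% were higher and 9.91% lower. Lilrb4a, an inhibitory receptor of myeloid cells, measured 1194, 1234 and 1016 scaled CPM in the BAFF libraries and 762, 629.7 and 706 in the controls, a log2 fold change of 0.71 with a limma adjusted p of 0.0023, and 0.0543 on the deposited scale. Against control tumour 1 alone its log2 fold change was 0.57 (limma adjusted p of 0.0963, with the spread from the BAFF libraries only). Pirb, an inhibitory receptor for class I molecules, had 0.37 with a limma adjusted p of 0.0466, and the call was lost on the deposited scale (0.326), with upper-quartile factors (0.0802), TMM factors (0.050002), the 5 CPM filter (0.0868) and no variance trend (0.116). It was also lost without any 1 library but control tumour 1, down to 0.25 and 0.184 without control tumour 2. Of the 10 monocyte and macrophage markers, 3 were called higher on scaled CPM and 0 on the deposited scale. On scaled CPM 8 of the 10 had log2 fold changes above 0, as these receptors did. The other 2, Adgre1 (-0.30) and Cd68 (-0.04), were below 0 and not called. The part of the marked cells in the receptor values was not tested.

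**Figure D5:**
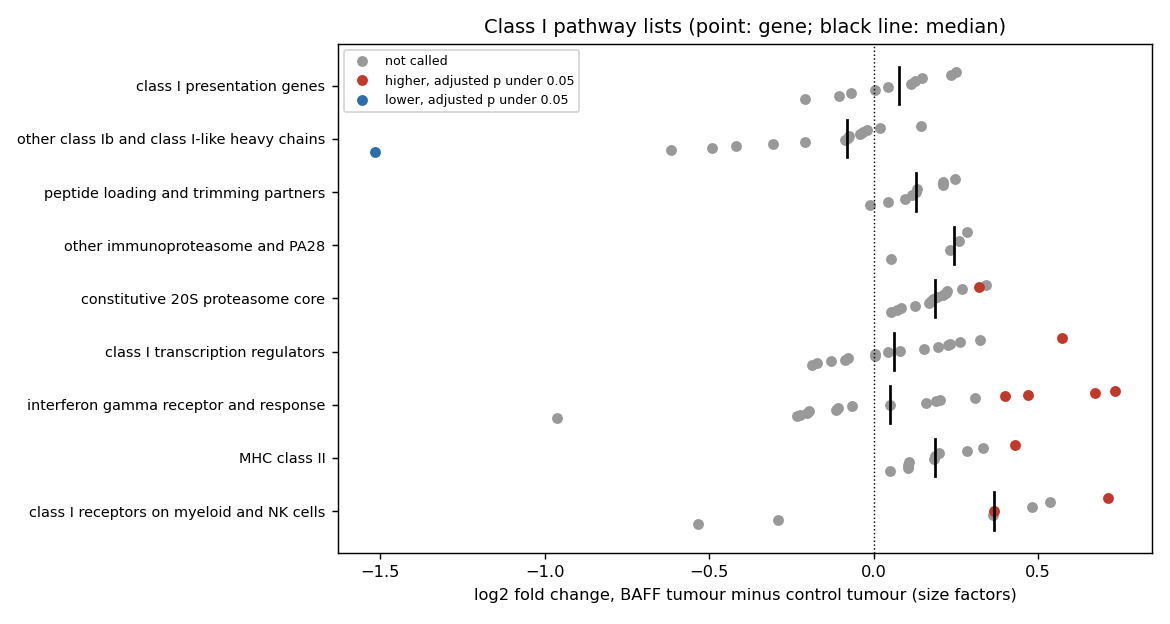
Log2 fold change, BAFF tumour minus control tumour, of every tested gene in the class I presentation set and 8 further pathway lists, on scaled CPM, with red and blue for genes with adjusted p under 0.05, grey for the rest and a black line for each list's median. The class I presentation set holds no called gene and spans -0.21 to 0.25, and the single lower call is Fcgrt at -1.52.

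Of the 7 lists of markers of other non-melanoma cells that a sort could hold, 3 had a higher summed level in every BAFF library than in every control. Among single genes, 17.3% of all tested were higher in this way, 7.18% were called higher and 9.91% were called lower. Neutrophil markers summed to 164 to 214 scaled CPM in the BAFF libraries and 97.8 to 151 in the controls, with 2 of 6 tested higher and the list led by Csf3r. The 2 were Csf3r and Retnlg, and both calls were lost on the deposited scale (limma adjusted p of 0.190 and 0.0984). There 3 others were called higher, S100a8, S100a9 and Cxcr2. Dendritic cell markers summed to 35.4 to 45.0 against 21.7 to 33.2 scaled CPM, led by Cd209a, with 2 of 7 higher and Itgae at 0 in 1 control library. Of these 7 genes 3 had log2 fold changes below 0. Among them were Xcr1 (-0.66) and Clec9a (-0.49), not called and named here after their values were seen. Endothelial markers summed to 29.8 to 38.7 against 20.1 to 26.6 scaled CPM, led by Pecam1, with 2 of 3 higher and Emcn and Tie1 at 0 in some controls. The remaining tested gene, Cdh5, went the other way with a log2 fold change of -0.34 and was not called. On the deposited scale 0 of the 3 were called. T cell markers (18.6 to 29.1 against 21.6 to 28.7 scaled CPM, led by Cd28), NK cell markers (8.34 to 13.7 against 6.83 to 18.3, led by Prf1), B and plasma cell markers (2.32 to 5.82 against 5.28 to 10.6, led by Jchain) and fibroblast markers (32.5 to 54.6 against 37.9 to 197, led by Col3a1) overlapped in summed level. In the last pair of lists 1 of 2 tested genes (Jchain, log2 fold change -1.18) and 1 of 6 (Col1a1, -1.14) fell, with limma adjusted p of 0.0298 and 0.0411. Col1a1 measured 41.3, 13.7 and 13.9 scaled CPM in control tumours 1 to 3, so its control mean was raised by control tumour 1. Its call was lost on the deposited scale (limma adjusted p of 0.0641), while that of Jchain was kept there (0.0217). Cd5, Cd79a and Mzb1 were each at 0 in 1 library. The part of these cells in the class I values was not tested.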

How the data were processed

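The 6 RNA-seq libraries, 3 per group, were made with an unstranded kit (TruSeq v2), per the labels' protocols. The authors deposited 1 table of CPM. Per the submitters' processing notes Partek, STAR 2.4.1d and Bowtie2 2.2.5 were used, without their roles. The genome build, annotation and counting rule were not given in the sources used here. Low CPM values were whole multiples of 1 read in 81.0% to 85.6% of cases (within 0.02 reads), so no count model was run. The misspelled control column 2 was assigned to control tumour 2 by its name. No 2 libraries of 1 group agreed within sampling noise (chi-square per degree of freedom at least 10.2).

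Scaled CPM is deposited CPM over a median-of-ratios factor from the tested genes. Genes that averaged at least 1 CPM were fitted with limma 3.58.1 in R 4.3.3 (trend) on log2(scaled CPM + 1), which understates fold changes of low genes, and p-values were adjusted over all 12824. The procedure was tested on simulated data. Read depth sets a floor of 3 reads, 0.109 to 0.635 CPM, for counting error only.

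The class I genes and all lists were chosen with earlier results of these data known. Named were the 10 class I genes, up to 4 called genes per direction of each pathway list or else its most abundant gene, the most abundant gene of each marker list, and the 5 most alike profiles. The GAANTGAAA pattern was added after the promoters had been read. Alternatives covered scaling, filter, pseudocount, variance trend, a minimum fold change, a replicate block and leaving out libraries. Some named genes are not reported here.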

Additional observations from a re-analysis of the deposited data

How the results depend on the processing

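The class I genes had 22 alternatives each, and 4 of the 220 values passed the test, all 4 on the deposited scale without control tumour 1. The count of genes called over the whole table, 2192, became 681 on the deposited scale, 1367 with a filter at a mean of 5 CPM, 591 with a minimum absolute log2 fold change of 1, and 1349 to 1830 when 1 library was left out. Some alternatives were chosen after seeing the data. The deposited scale gave 260, 219 and 170 calls without BAFF tumours 1, 2 and 3, and 5149, 319 and 1171 without control tumours 1, 2 and 3, with 4 class I genes higher in the fit of 5149 and 0 in the other 5. Leaving out both control libraries high in rRNA gave 1100 on scaled CPM, but with control tumour 1 as the only control, assumed to vary like the BAFF libraries. The causes were not tested.

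Replicate numbers did not pair the libraries, with correlations of same-numbered deviations across genes of -0.049, 0.052 and -0.039. With the replicate number as a block 1940 genes were called, and 608 on the deposited scale, with 0 of the 10 class I genes in both; among the other named genes of scaled CPM the block ended the calls of Psma7 (limma adjusted p = 0.0596) and Pirb (0.0625). H2-K1, H2-D1 and Psmb9 changed sign on the deposited scale, with and without the block, to log2 values of 0.045, 0.18 and 0.14. Sign changes near 0 came with upper-quartile factors (H2-T23 -0.0054, Psmb8 -0.045), TMM factors (Psmb8 -0.0026) and the 5 CPM filter (Psmb8 -0.038).

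Leaving out 1 library moved the log2 values of scaled CPM to -0.044 to 0.16 for H2-T23, -0.017 to 0.27 for Tap2, -0.087 to 0.14 for Psmb8 and -0.20 to 0.045 for Psmb9. The log2 ratios then ran from -0.16 to 0.11 for Psmb8/Psmb5, -0.39 to 0.0018 for Psmb9/Psmb6, -0.18 to 0.021 for Psmb10/Psmb7 and -0.12 to 0.11 for Tap1/Tap2, while H2-K1/B2m stayed between -0.40 and -0.33 and H2-D1/B2m between -0.24 and -0.19. On the deposited scale with 1 library left out, further sign changes were seen. H2-K1 was at 0.13, 0.021, 0.28 and 0.096 without BAFF tumours 1 and 3 and control tumours 1 and 2. H2-D1 was at 0.23, 0.098, 0.23, 0.42 and 0.22 and Psmb9 at 0.30, 0.055, 0.063, 0.33 and 0.26 without BAFF tumours 1 to 3 and control tumours 1 and 2. H2-T23 was at -0.013 without control tumour 3.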
